A study of Mus musculus with 2 samples.

Results

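The endocannabinoid system genes Cnr1, Dagla, Daglb, Mgll and Faah were described in DNase-seq data from mouse hippocampus. These 5 genes were taken by name from the 21853 protein-coding genes of the GENCODE M21 annotation, with no measured value in the choice. The material was hippocampus of male B6CASTF1/J mice aged 2 months, the first-generation offspring of a B6 and a CAST parent, and the labels speak of a layer of it without naming which. There was 1 group of 2 samples, biological replicates 1 and 2, with no treatment, mutant or other tissue. The labels give both samples the same donor entry and do not say whether separate animals were used, so the spread between them may be partly technical. DNase I cuts DNA where nucleosomes leave it accessible, and the height of a peak of cuts, in the deposited signal units, was the measure of accessibility. Heights pool the B6 and CAST alleles, since reads of both were placed on 1 assembly, mm10 (GRCm38). In bulk tissue a low peak in all cells and a high peak in few cells cannot be told apart.

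Endocannabinoids are lipid messengers that mostly travel backwards across synapses, from the receiving neuron to the sending one. Cnr1 encodes the cannabinoid receptor CB1, a G-protein-coupled receptor of axon terminals that lowers transmitter release and, in hippocampus, is densest on terminals of cholecystokinin interneurons. Dagla and Daglb encode the diacylglycerol lipases alpha and beta, which make the messenger 2-arachidonoylglycerol, Dagla being the main neuronal enzyme. Mgll encodes monoacylglycerol lipase, which breaks 2-arachidonoylglycerol down, and Faah encodes fatty acid amide hydrolase, which breaks down the other main messenger, anandamide.

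Replicate 1 held 132685 peaks and replicate 2 held 59880 in the longer deposited lists, with 255536 and 111355 footprints, short stretches inside open chromatin where cutting is reduced. A shared site was the stretch covered by overlapping peaks of both replicates, and its height in a replicate was that of the highest peak of that replicate over it. A peak that overlapped several peaks of the other replicate gave several shared sites. Of 26 marker genes of brain cell types, 19 had a promoter peak in at least 1 replicate and 8 had overlapping ones in both. Of all protein-coding genes 57.1% had overlapping ones in both, a larger share. The share of all genes with one in at least 1 replicate was not counted, and 63.4% had one in replicate 1. In the same lists, of 6 liver and muscle markers 1 had one in at least 1 replicate and 0 in both. Overlapping promoter peaks were found at markers of excitatory neurons (3 of 6) and interneurons (2 of 4). They were also found at those of astrocytes (2 of 4) and oligodendrocytes (1 of 4). Markers of microglia (0 of 4) and endothelium (0 of 4) had no overlapping ones. The interneuron marker Gad2 and the endothelial marker Flt1 had a peak in each replicate, but without overlap.

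The sequences of every shared site over 5000 bp from any GENCODE coding start whose footprints overlapped between the replicates are shown. At these sites away from GENCODE coding starts the protected bases could be read in both replicates. Each runs 5′ to 3′ on the strand of the gene it is listed with, from the RefSeq sequence of GRCm38, and capitals mark bases inside a footprint of both replicates. Distances in kb run along transcription from the gene's first protein-coding start. Predicted RefSeq transcripts start nearer, 439 bp from the Mgll site at 35.6 kb and 1246 bp from the Dagla site at 28.2 kb.
Cnr1 site at -30.6 kb, chr4:33893961-33894160: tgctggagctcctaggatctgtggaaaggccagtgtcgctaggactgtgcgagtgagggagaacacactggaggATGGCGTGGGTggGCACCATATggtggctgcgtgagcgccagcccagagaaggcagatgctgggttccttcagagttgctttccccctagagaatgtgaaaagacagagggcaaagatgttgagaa
Dagla site at -28.9 kb, chr19:10333661-10333820: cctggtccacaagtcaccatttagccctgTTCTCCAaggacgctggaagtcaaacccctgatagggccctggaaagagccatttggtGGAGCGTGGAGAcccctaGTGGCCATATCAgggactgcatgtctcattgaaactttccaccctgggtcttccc
Dagla site at 28.2 kb, chr19:10276601-10276820: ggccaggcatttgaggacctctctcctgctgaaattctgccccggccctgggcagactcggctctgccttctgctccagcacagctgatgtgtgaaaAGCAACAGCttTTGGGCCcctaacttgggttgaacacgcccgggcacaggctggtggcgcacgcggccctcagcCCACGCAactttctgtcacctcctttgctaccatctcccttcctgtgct
Dagla site at 46.3 kb, chr19:10258509-10258680: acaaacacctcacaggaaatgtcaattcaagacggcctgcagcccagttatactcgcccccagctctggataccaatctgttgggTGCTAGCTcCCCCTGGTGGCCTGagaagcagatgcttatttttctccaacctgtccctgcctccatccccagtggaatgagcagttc
Daglb site at -40.5 kb, chr5:143424001-143424176: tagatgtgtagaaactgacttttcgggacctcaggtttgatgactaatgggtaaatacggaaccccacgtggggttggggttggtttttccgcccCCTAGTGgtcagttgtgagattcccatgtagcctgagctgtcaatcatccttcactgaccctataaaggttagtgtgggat
Mgll site at 35.6 kb, chr6:88759881-88760100: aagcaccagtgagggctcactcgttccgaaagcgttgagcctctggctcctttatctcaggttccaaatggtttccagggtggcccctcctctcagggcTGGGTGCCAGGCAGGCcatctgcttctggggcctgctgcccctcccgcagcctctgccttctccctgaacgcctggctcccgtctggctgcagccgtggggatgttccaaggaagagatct
Faah site at 64.9 kb, chr4:115952940-115953051: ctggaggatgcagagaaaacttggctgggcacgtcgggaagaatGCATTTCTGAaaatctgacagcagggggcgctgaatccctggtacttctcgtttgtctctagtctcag
Faah site at 33.6 kb, chr4:115984221-115984380: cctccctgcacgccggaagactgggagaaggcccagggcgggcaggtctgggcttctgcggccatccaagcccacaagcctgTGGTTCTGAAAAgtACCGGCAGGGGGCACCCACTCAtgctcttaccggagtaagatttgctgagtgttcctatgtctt

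At the starts themselves only the short stretch around a footprint of both replicates is printed, in the same way. Dagla also had such footprints, given below by position. They are not printed, since the RefSeq promoter table used here holds no row for Dagla.
Cnr1 promoter footprint, chr4:33924641-33924669: gcCAGAGACAGCgcgcGAGCTGAGggaga
Daglb promoter footprint, chr5:143464559-143464586: gccggaGGCGCATGCGCGGGTctttacg
Mgll promoter footprint, chr6:88724376-88724402: gccccggcgCCGCCTCCccgcgcgtcc
Faah promoter footprint, chr4:116017711-116017739: gcgatcCAGGCCGGgttttgcagcggagc

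All 5 genes had an open promoter, meaning a shared site within 500 bp of a protein-coding start. The same held for 57.1% of all protein-coding genes, and a promoter peak was listed for 63.4% of genes in replicate 1 and 58.5% in replicate 2. The 5 promoter peaks were also in the shorter deposited lists of both replicates, whose shared peaks opened 51.2% of all protein-coding promoters. Their heights lay between 1.55 and 4.39 in replicate 1 and between 1.72 and 3.50 in replicate 2. Open promoters as a whole had medians of 4.05 and 2.46 in the same replicates, with quartiles of 2.15 to 6.11 and of 1.58 to 3.37. In replicate 1, 4 of the 5 were below the median of open promoters, with Daglb above it. In replicate 2, 3 of the 5 were below it, with Mgll above it and Dagla above the upper quartile as well.

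**Figure D1:**
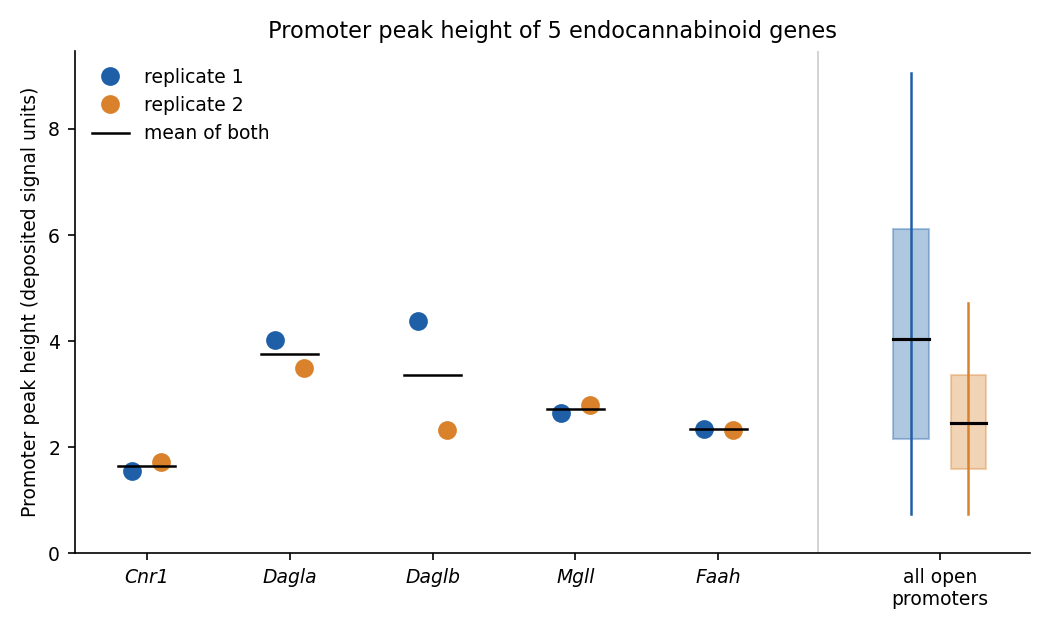
Promoter peak height in deposited signal units for each gene (points, 1 per replicate; bar, their mean), beside all 12484 open promoters (line, 5th to 95th percentile; box, quartiles; bar, median). Cnr1 was lowest in both replicates, and Daglb had the widest gap, 4.39 in replicate 1 and 2.32 in replicate 2.

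The receptor gene Cnr1 (ENSMUSG00000044288.6, chr4:33924593-33948831, plus strand) had the lowest promoter of the 5 in both replicates, at 1.55 in replicate 1 and 1.72 in replicate 2, a mean of 1.64 ± 0.120 (SD, n = 2). Among open promoters these were the 17.0th and 28.9th percentiles. The peak of replicate 1 ran from -51 to 68 bp around the first start and that of replicate 2 from -211 to 308 bp, widths of 120 and 520 bp. A further peak of replicate 2 at 329 to 608 bp was 1.06 high. The footprints that overlapped between the replicates, printed above, lie at 11 to 35 bp, inside the transcribed region. The second annotated coding start, 1570 bp further on, had no shared site within 500 bp, and the nearest began 759 bp from it.

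Dagla (ENSMUSG00000035735.10, chr19:10245265-10304877, minus strand), the alpha lipase, had promoter heights of 4.03 in replicate 1 and 3.50 in replicate 2, a mean of 3.76 ± 0.375 (SD, n = 2). It was above Mgll, Faah and Cnr1 in both replicates. Its peaks ended 4 bp before the start in both replicates and began at -243 and -283 bp, so the accessible stretch lay wholly before the transcribed region. They held 5 footprints in replicate 1 and 3 in replicate 2, which overlapped between the replicates at -172 to -148 bp and at -191 to -181 bp.

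Daglb (ENSMUSG00000039206.13, chr5:143464584-143505942, plus strand), the beta lipase, was the one gene whose replicates stood well apart, with 4.39 in replicate 1 and 2.32 in replicate 2 (mean 3.35 ± 1.46, SD, n = 2). That is a log2 ratio of replicate 2 to replicate 1 of -0.92, where the median over open promoters was -0.71. The Dagla and Daglb promoters could not be ranked, since Daglb was the higher in replicate 1 and Dagla in replicate 2. The Daglb peaks spanned the start, from -103 to 96 bp in replicate 1 and from -123 to 236 bp in replicate 2. The footprints that overlapped between them together covered -22 to -1 bp, just before the GENCODE start. RefSeq places its 4 starts of Daglb at -100 to -91 bp, and by these the footprints lie inside the transcribed region.

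Mgll (ENSMUSG00000033174.17, chr6:88724412-88828360, plus strand) had promoter heights of 2.64 in replicate 1 and 2.79 in replicate 2, a mean of 2.71 ± 0.106 (SD, n = 2). All 6 of its annotated coding starts lay within 500 bp of this site, and an antisense gene, Gm26588, starts there too. The peaks ran from -51 to 328 bp in replicate 1 and from -51 to 588 bp in replicate 2. They held 8 and 6 footprints, and the replicates overlapped in a single stretch, at -28 to -18 bp.

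Faah (ENSMUSG00000034171.13, chr4:115967145-116017926, minus strand) had promoter heights of 2.34 in replicate 1 and 2.32 in replicate 2, a mean of 2.33 ± 0.0133 (SD, n = 2). It stood between Mgll and Cnr1 in both replicates, and in replicate 2 it equalled Daglb. In replicate 1 the accessible stretch was a pair of narrower peaks after the start, at 186 to 305 bp (height 2.34) and at 426 to 678 bp (height 1.07). Replicate 2 had 1 peak from -34 to 485 bp over both. The site of the higher peak lies in the first exon, over 5′ untranslated and coding sequence, and the overlapping footprints printed above lie in it at 192 to 210 bp. Of the 5 genes, Faah alone had its shared promoter site entirely after the start and Dagla alone entirely before it.

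**Figure D2:**
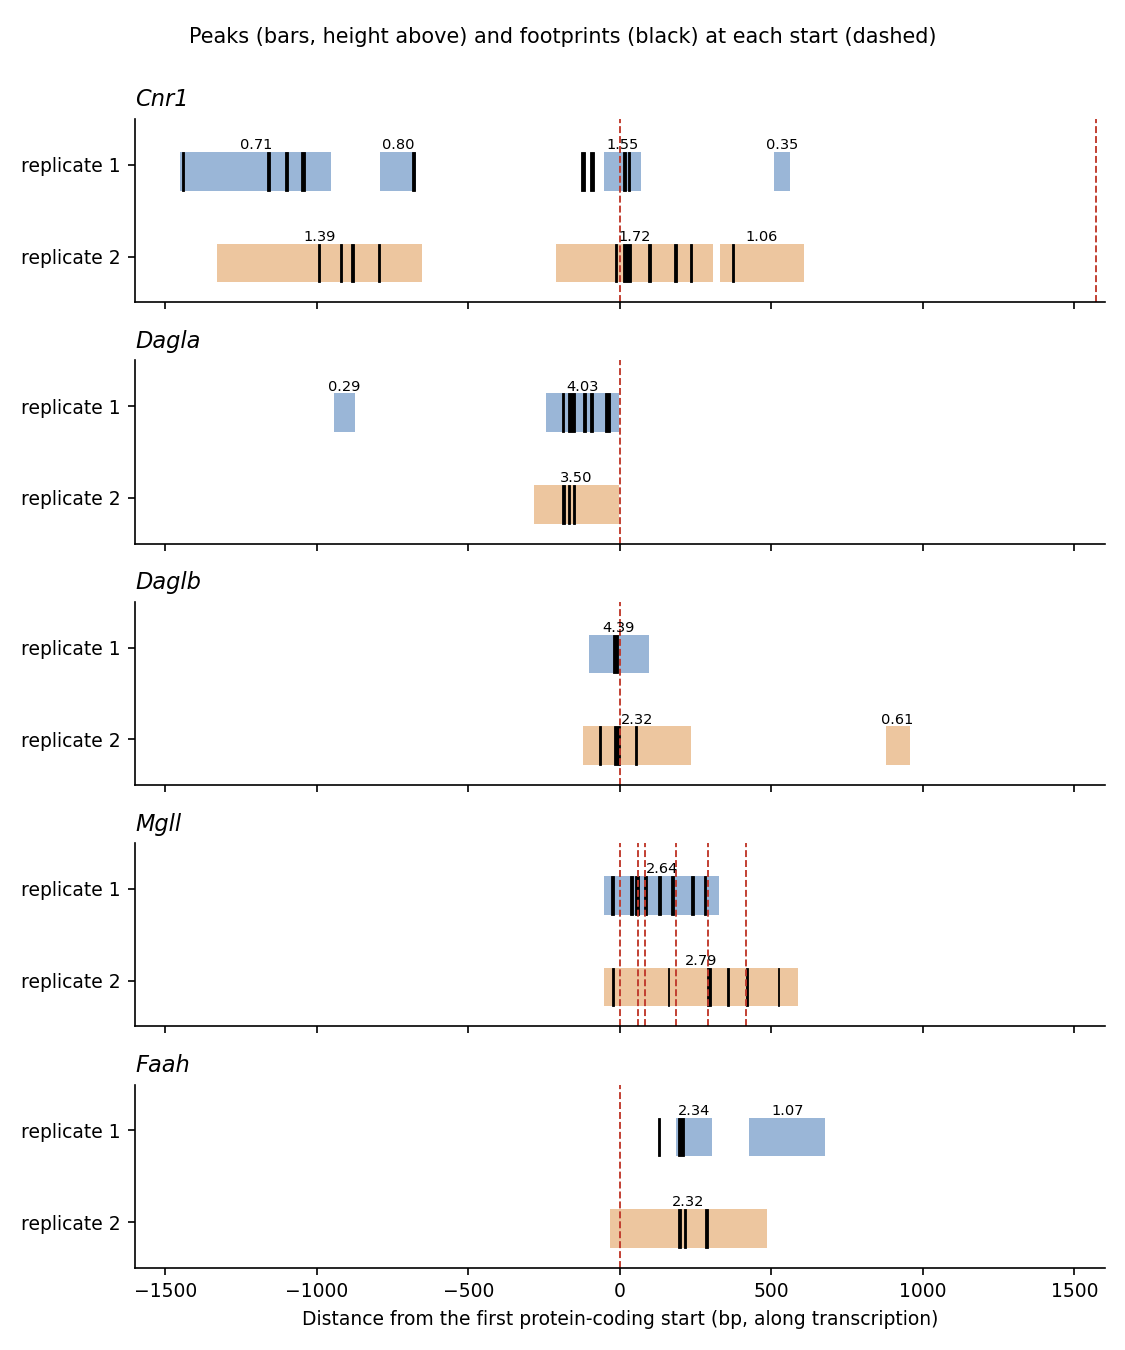
Peaks (bars, height in deposited signal units above each) and footprints (black) within 1600 bp of the first protein-coding start, by replicate, with coding starts dashed, along transcription in bp. The peak of Dagla ended before its start in both replicates, and Faah had a pair of peaks after its start in replicate 1 where replicate 2 had 1 wide peak.

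Relative to other promoters, 4 of the 5 were better kept in replicate 2 than the typical open promoter. Their log2 ratios of replicate 2 to replicate 1 were 0.15 for Cnr1, 0.08 for Mgll, -0.01 for Faah and -0.20 for Dagla, against the median of -0.71 over 12484 open promoters, and lay at the 90.4th, 88.9th, 86.7th and 80.3rd percentiles. The median ratio was nearer to 0 among low promoters, at -0.24 around the replicate 1 height of Cnr1 and -0.74 around that of Daglb, so each gene was also set beside open promoters within 20% of its own height in replicate 1. On that footing Cnr1 stood at the 80.6th percentile of 1079 genes, Dagla at the 92.3rd of 2625, Mgll at the 93.1st of 1710, Faah at the 86.7th of 1507 and Daglb at the 30.1st of 2849. No test was made with 2 samples of 1 group.

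Over the gene bodies plus 50 kb on each side, the 5 genes had 41 shared sites, of which 16 were at a coding promoter of some gene and 6 at a promoter of the 5 genes themselves. Replicate 1 listed 101 sites there, 40 of them found in replicate 2 (39.6%, 95% exact Clopper-Pearson interval 30.0 to 49.8), against 37.8% over the genome. Replicate 2 listed 47, of which 37 were found in replicate 1 (78.7%, 64.3 to 89.3), against 81.9% over the genome. These shares were close to those of all sites, and the intervals cover counting error only. Of the 61 sites of replicate 1 alone, 7 (11.5%) overlapped an interval with a listed false discovery rate (FDR) in replicate 2, against 8.38% over the genome. Of the 10 sites of replicate 2 alone, 1 (10%, interval 0.253 to 44.5) overlapped such an interval of replicate 1, against 26.9% over the genome.

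**Figure D3:**
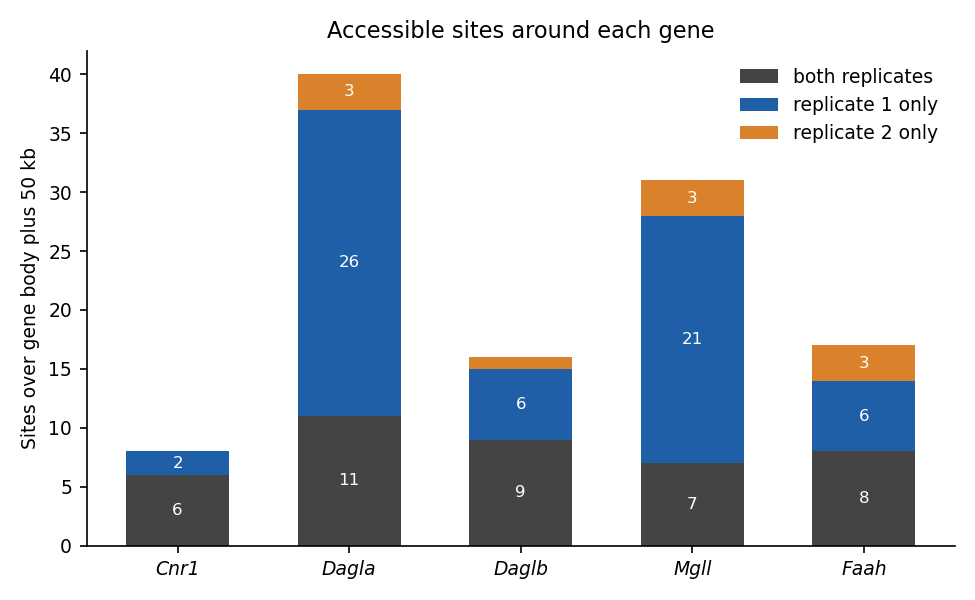
Number of accessible sites over each gene body plus 50 kb, split into sites found in both replicates and in 1 replicate only. Dagla had 11 shared sites and 26 of replicate 1 alone, Mgll 7 and 21, Daglb 9 and 6, Faah 8 and 6, and Cnr1 6 and 2.

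Shared sites were densest around Dagla, at 6.89 per 100 kb (11 sites in 160 kb), followed by Daglb at 6.37 (9 in 141 kb), Faah at 5.31 (8 in 151 kb), Cnr1 at 4.83 (6 in 124 kb) and Mgll at 3.43 (7 in 204 kb). The median over all protein-coding genes was 3.30, with quartiles of 1.41 and 5.66. This order changed with the processing. With the shorter deposited lists Dagla had the fewest shared sites of the 5, at 3, against 6 for Faah, 5 each for Cnr1 and Daglb and 4 for Mgll. With 50% reciprocal overlap Daglb had the most, 7, and Dagla 5. Neighbouring genes add to these counts: 4 other coding genes lie within 50 kb of Dagla, 3 each of Daglb and Faah, 2 of Mgll and 0 of Cnr1. Without sites at any coding promoter, the densities were 5.01 for Dagla, 4.02 for Cnr1, 3.54 for Daglb, 2.65 for Faah and 1.47 for Mgll, against a median of 1.56 over all genes. On this count Dagla stood at the 93.9th percentile of all genes, Cnr1 at the 88.5th and Mgll at the 48.2nd, where with promoter sites Cnr1 stood at the 67.9th. The value for Dagla rests on 8 sites, of which 3 are low neighbours between 9.2 and 9.5 kb, cut from peaks they share. Only 1 of the 8, at 28.2 kb, was in the shorter lists of both replicates. For Cnr1 this held for 3 of 5 sites. All of these 5 but the one at -30.6 kb lay 509 to 952 bp from a coding start of Cnr1, close outside the promoter window.

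The accessible sites of Cnr1 were clustered at its start. From -1.14 to 2.37 kb it had 5 of its 6 shared sites, and in its 24.2 kb body neither replicate listed a further peak beyond the last of them. The upstream pair, chr4:33923301-33923680 at -1.14 kb and chr4:33923841-33923960 at -0.73 kb, had heights of 0.711 and 0.797 in replicate 1, and a single peak of replicate 2, 1.39 high, lay over both. GENCODE places these outside the gene, whereas predicted RefSeq transcripts start 130 bp from the first and 44 bp from the second. The site at chr4:33926961-33927036, in an intron at 2.37 kb, had heights of 1.00 and 0.667. In the flanks a single shared site was found, the printed one at -30.6 kb, with 1.25 in replicate 1 and 0.947 in replicate 2. Of its 6 shared sites, 4 were higher in replicate 2, against 28.7% of all shared sites and 11 of 41 (26.8%) over the 5 genes. The highest site of replicate 1 alone, chr4:33915817-33915990, reached 0.465.

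Dagla had the most sites of the 5 in its own introns, where 5 shared sites lay. The strongest in replicate 1, chr19:10258509-10258680 at 46.3 kb, was 3.85 high there and 1.80 in replicate 2, below the gene's own promoter in both (4.03 and 3.50). It held 5 and 2 footprints. A further 3 shared intron sites lay side by side between 9.2 and 9.5 kb and were low, at 0.406 to 0.444 in replicate 1 and 0.387 to 0.775 in replicate 2. They are not separate peaks: the middle site has a peak in common with each of the others. At chr19:10276601-10276820, 28.2 kb into the gene, heights were 1.80 in replicate 1 and 2.02 in replicate 2, where it was the highest of the intron sites, with 5 and 4 footprints, 3 of which had a counterpart at the same place in the other replicate. This was the one of the printed sites that was higher in replicate 2. Upstream, chr19:10333661-10333820 at -28.9 kb had 3.52 in replicate 1 and 1.46 in replicate 2, with 3 footprints in each. Past the far end of the gene, chr19:10198926-10199044 at 106 kb, at the start of the antisense gene Gm10143, had 3.17 and 1.25. The promoters of the neighbours Myrf (3.24 and 1.33), a myelin gene regulator, and Fen1 with Tmem258 (4.60 and 3.06), which share a start region, also fell within 50 kb. The highest site of replicate 1 alone outside promoters was chr19:10219221-10219380 in an intron of Myrf, at 2.11.

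**Figure D4:**
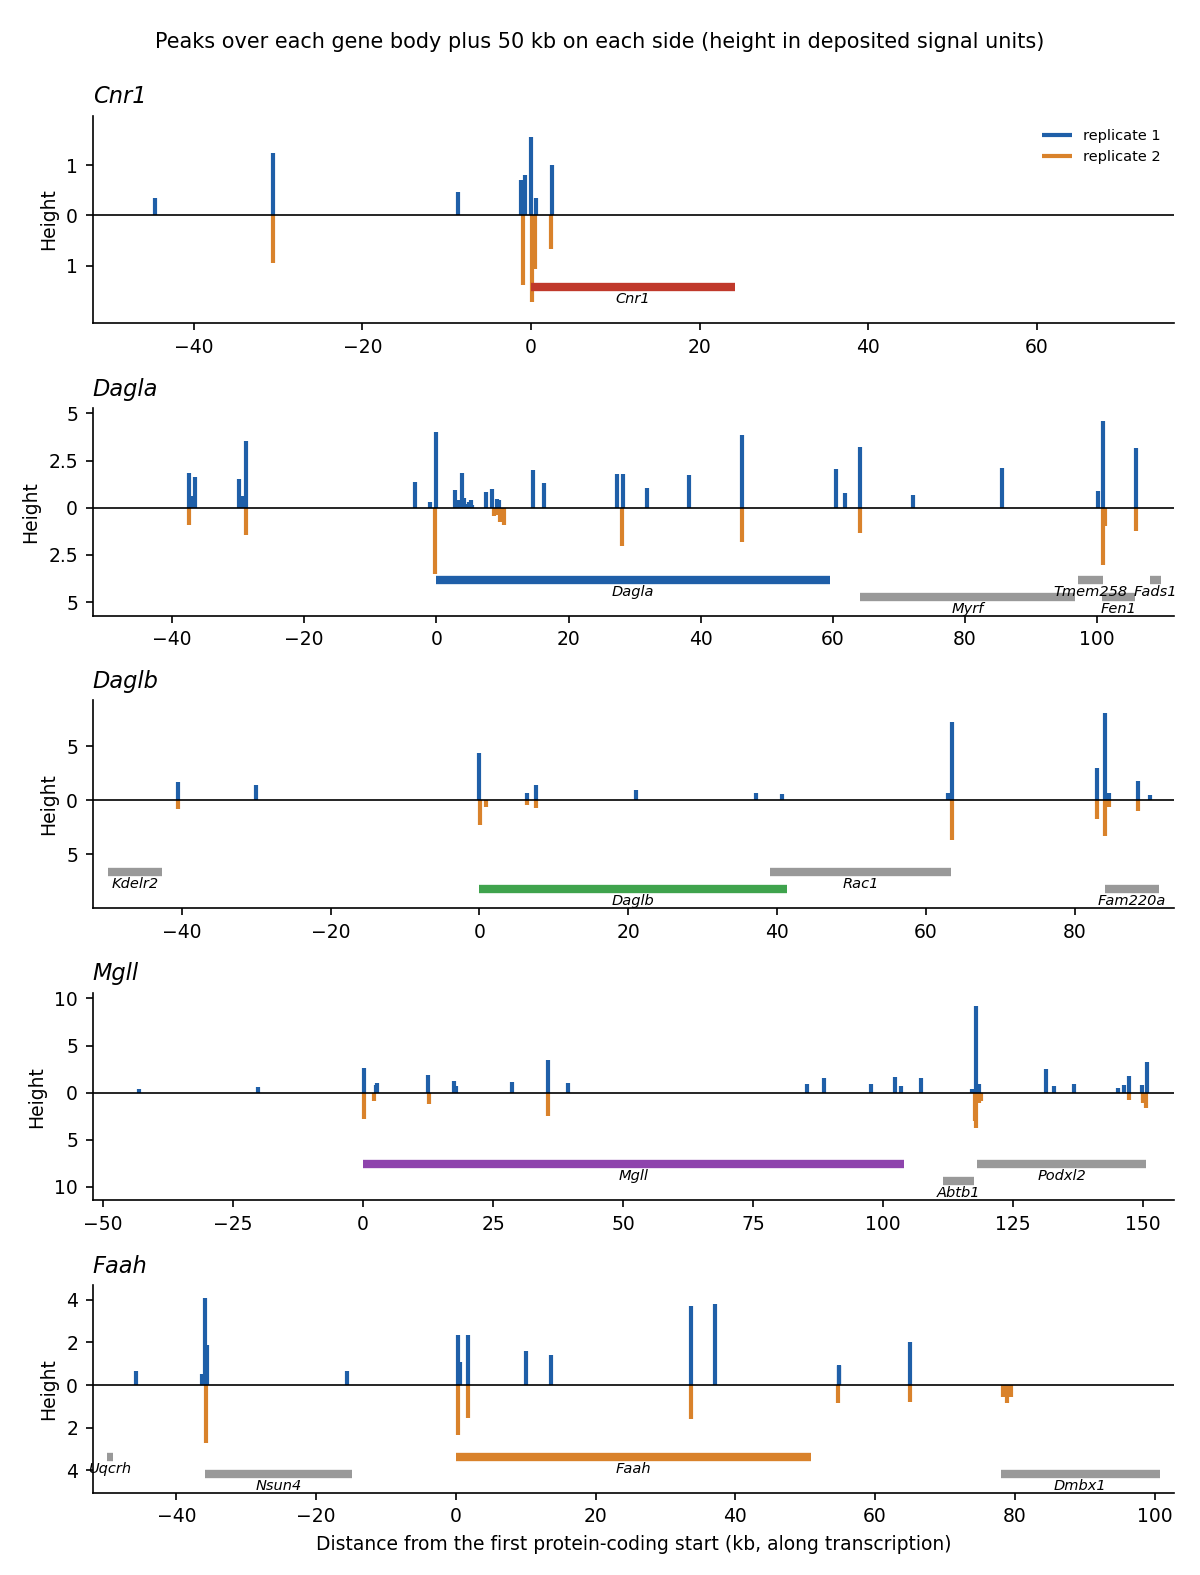
Every peak over each gene body plus 50 kb, with replicate 1 above and replicate 2 below the line (height in deposited signal units) and coding genes as bars, along transcription in kb from the first start. Cnr1 had no peak of either replicate in its body beyond those at 2.35 and 2.42 kb, and Dagla had a run of mostly low peaks in its first 10 kb.

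Around Daglb the highest shared sites were the promoters of its neighbours. Fam220a had 8.06 in replicate 1 and 3.28 in replicate 2, and Rac1, a small GTPase gene whose far end overlaps that of Daglb, had 7.24 and 3.68, both above the 4.39 and 2.32 of Daglb itself. Outside promoters, chr5:143547501-143547700 at 83.0 kb had 2.98 and 1.71 and lay 1006 bp from the start of Fam220a. In an intron of Fam220a at 88.5 kb, chr5:143553001-143553204 had 1.79 and 1.02. The printed site at -40.5 kb had 1.69 in replicate 1 and 0.850 in replicate 2. Within its own introns Daglb had shared sites of 1.44 and 0.699 at 7.55 kb and of 0.695 and 0.463 at 6.44 kb. All shared sites outside promoters had medians of 1.24 in replicate 1 and 0.893 in replicate 2. The highest site of replicate 1 alone, chr5:143434501-143434660 at -30.0 kb, reached 1.44.

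Mgll, the longest of the 5 at 104 kb, had a single shared site inside its body besides the promoter. This site, chr6:88759881-88760100 at 35.6 kb, was in an intron and stood at 3.44 in replicate 1 and 2.50 in replicate 2, above the gene's own promoter in replicate 1 (2.64) and below it in replicate 2 (2.79). A predicted RefSeq transcript of Mgll starts 439 bp from it. Another 12 sites of replicate 1 alone lay in the body, from 0.668 to 1.82 high. The highest of these, chr6:88736721-88736940 at 12.4 kb, ended just short of a peak of replicate 2, chr6:88736961-88737060 (1.22), so the replicates were accessible side by side there without counting as shared. The other shared sites lay over the neighbours, among them the Abtb1 promoter (9.21 and 3.77), the highest of all 41, and the Podxl2 promoter (3.30 and 1.58). Outside promoters, Podxl2 held chr6:88871621-88871780 (1.76 and 0.785) and chr6:88842821-88843060 (0.936 and 1.10), and the highest site of replicate 1 alone, chr6:88855721-88855920 (2.50).

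Faah had its highest shared site outside promoters at chr4:115984221-115984380, with 3.69 in replicate 1 and 1.59 in replicate 2. It lies 33.6 kb along, beyond the end of the protein-coding transcript and inside the annotated body only through a noncoding transcript with a retained intron. In replicate 1 it stood above the promoter of Faah (2.34) and in replicate 2 below it (2.32). A close neighbour at 37.0 kb, chr4:115980801-115980960, reached 3.80 in replicate 1, the highest site of the 5 genes found in a single replicate. Replicate 2 listed an FDR of 0.0398 there but no peak. In the first intron, chr4:116016081-116016280 at 1.75 kb had 2.33 and 1.57, and chr4:115952940-115953051 at 64.9 kb, beyond the gene, had 2.02 and 0.807. The promoter of the neighbour Nsun4 had 4.08 and 2.74.

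**Figure D5:**
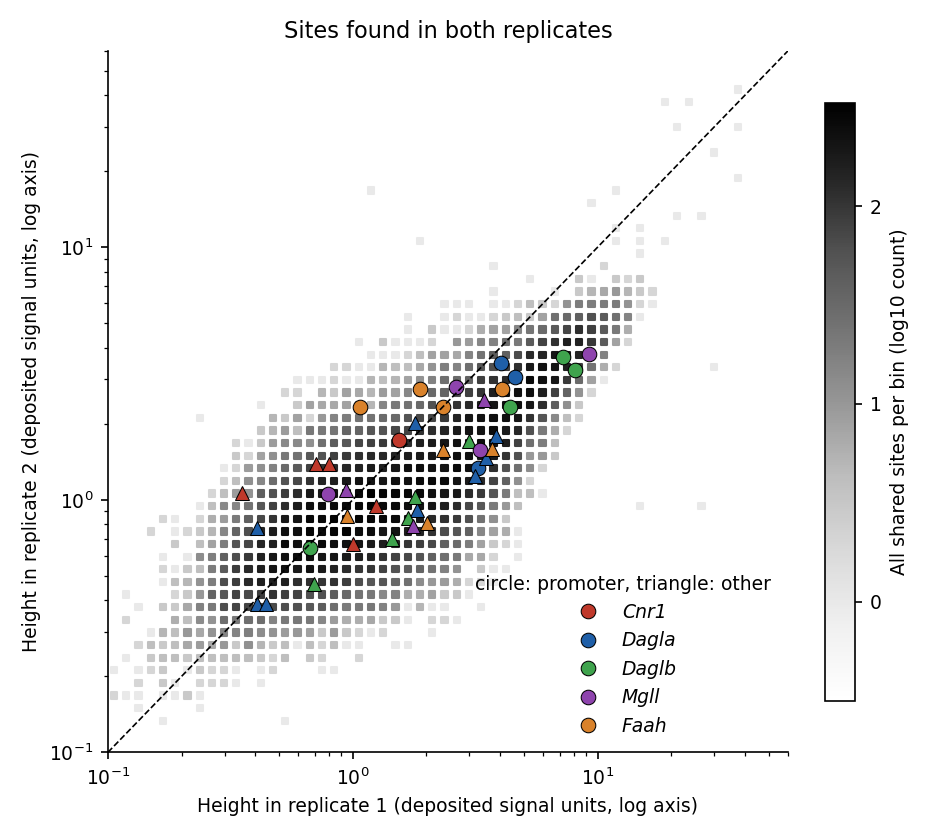
Height in replicate 1 against replicate 2 (log axes, deposited signal units) for the 41 shared sites around the 5 genes (circles at a coding promoter, triangles elsewhere) over all 50780 shared sites (grey, log10 count per bin), with the dashed line of equal heights. Of the 41, 11 lay above the line, 4 of them from Cnr1.

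Footprints were found in both replicates at 28 of the 41 shared sites (68.3%, interval 51.9 to 81.9), against 63.5% of all shared sites. A footprint of replicate 1 overlapped one of replicate 2 at 24 of the 41 (58.5%, 42.1 to 73.7), against 48.8% of all. Both shares were within counting error of the background.

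A search for fixed letter patterns on both strands covered windows of 200 bp around each shared site. Here and in the printed sequences only GRCm38 was read, so bases that differ on the CAST allele were not considered. Patterns are given by their letters or, for most of the longer ones with open positions, by name. The SP and KLF letters GGGCGG were in 17 of the 41 windows (41.5%), against 27.9% of all shared sites, and overlapped a footprint of both replicates in 4, at the promoters of Dagla, Rac1, Fam220a and Abtb1. The CTCF motif was in 3 windows (7.32%), against 3.99% of all, and in each of the 3 it overlapped a footprint of both replicates. These were the Dagla sites at 46.3 and 106 kb and the Daglb site at -40.5 kb. In the printed strands at 46.3 and -40.5 kb the string lies over or beside the capitals, as its reverse complement. The NRF1 motif was in 4 windows (9.76%), against 4.67% of all, and lay over a common footprint at the promoters of Daglb and Podxl2. In the printed Daglb footprint it is most of the run of capitals just before the GENCODE start.

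The other patterns were each in 6 windows or fewer. The E-boxes CAGATG and CAGCTG, read by factors that include the neuronal bHLH family, were in 6 and 4 windows (14.6% and 9.76%), against 20.2% and 17.0% of all. ETS letters CCGGAAG were in 3 (against 5.49%), CREB letters TGACGTCA in 1 (1.25%), AP-1 letters TGANTCA in 1 (5.65%) and EGR letters GCGGGGGCG in 1 (2.00%). YY1 letters AAGATGGCG (1.00% of all), the MEF2 motif (2.18%), the NFI motif (0.0551%) and the EGR variant GCGTGGGCG (0.522%) were in 0. A match is a string of letters and not a bound site. In the RefSeq promoter table (250 bases before to 50 after a start, GRCm38.p6) 7 rows matched Cnr1, Daglb, Mgll and Faah. Their GC content was 76.3%, 69.0% and 46.3% at starts of Cnr1, 70.0% and 72.3% at those of Mgll, 57.7% at Faah and 51.0% at Daglb, against a median of 52.7% over 32851 promoters. The Cnr1 row of lowest GC belongs to a start without a shared site. The Daglb row, set on a RefSeq start at -91 bp, ends before the printed footprint. The shared site at the Daglb promoter was 70% GC.

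Among 20 other genes of the pathway, 15 (75%) had an open promoter, against 57.1% of all protein-coding genes, and the other 5 had no promoter peak in either replicate. All 6 genes of breakdown and transport were open and 7 of 8 of synthesis, but only 2 of 6 receptors and receptor partners. These 2 were the partners Cnrip1 and Sgip1, and Cnrip1 has the start of another coding gene within 1000 bp. Some open promoters were low, the lowest being that of Inpp5d, of the synthesis list. It had 0.652 in replicate 1 and 0.570 in replicate 2, the 2.52nd percentile of open promoters by mean log height. The highest was Napepld, which encodes the phospholipase D that releases anandamide, at 8.68 in replicate 1 and 5.11 in replicate 2, the 96.2nd percentile of open promoters by mean log height. Abhd12, a lipase that can act on 2-arachidonoylglycerol, had 6.67 and 5.10. Abhd4, of another route to anandamide, had 7.23 and 4.00, with the start of another coding gene within 1000 bp. All 3 were higher in both replicates than any of the 5 genes. The genes without a promoter peak were Cnr2, the CB2 receptor of immune cells, the receptors Gpr55 and Gpr18, the channel Trpv1 and the phosphatase Ptpn22. Of the cannabinoid receptor genes Cnr1 and Cnr2, only Cnr1 had an open promoter here.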

How the data were processed

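DNase-seq of 2 samples of 1 group was used. The authors deposited for each sample a longer and a shorter peak list, a footprint list and FDR intervals, on mm10 per the labels. Not given in the sources used here are the aligner, the callers, their thresholds and the scaling of heights. Peak heights were used as deposited signal values. FDR values, listed only below 0.05, were taken as the q-value the authors deposited per interval. The footprint column held a constant 0.01 as deposited, a value with no use as a score or p-value, so footprints were used by position. Within a sample all heights were multiples of 1 step (0.00535 in replicate 1, 0.0108 in replicate 2). Its reciprocals, 187 and 93.0, would be depths in M if 1 step is 1 read in a CPM-like scale. Depth itself is unknown.

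Overlaps (at least 1 bp) were found on GRCm38, and the last peak of 21 of 21 chromosomes lay within its lengths. Python 3.11.15, numpy 2.4.6, scipy 1.17.1, pandas 2.3.3, pysam 0.24.0, bedtools 2.31.1 and matplotlib 3.10.9 were used, and the overlap code was tested on simulated data. With 1 group no comparison of groups or test was made. A site's place is its midpoint, except in statements about start windows. Named were the 5 genes, of 20 pathway genes the 3 highest and all without a peak in either, and per gene the 3 highest shared sites and the highest of 1 replicate alone, outside promoters. Other sites, pathway genes and markers were named after their values were seen. Members, lists and motifs were chosen with earlier results of these data known. Alternatives were the shorter lists, other overlaps, windows and flanks, lists of equal length and each replicate alone.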

Additional observations from a re-analysis of the deposited data

How the results depend on the processing

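No paired analysis was possible because the 2 samples form 1 group and no test was made. The 5 open promoters stayed 5 with the shorter lists, lists of equal length (59880 peaks each), windows of 200 and 2000 bp, RefSeq starts (chosen after seeing the data) and either replicate alone. With 50% reciprocal overlap 3 remained, since the peaks of Cnr1 and Faah differed in width between replicates. That overlap left 22 shared sites in all (Cnr1 2, Dagla 5, Faah 3), with 21.8% of replicate 1 sites and 46.8% of replicate 2 sites found in the other. The shorter lists left 23 (Dagla 3, Daglb 5, Mgll 4), 18 of them with a footprint in both replicates. Flanks of 10 kb left 22 (Dagla 7, Daglb 3, Mgll 2, Faah 5), 13 with a footprint. Gene bodies alone left 17 (Cnr1 3, Dagla 5, Daglb 3, Mgll 2, Faah 4), 9 with a footprint. With a single replicate the sites numbered 47 to 101 in all, 5 to 8 for Cnr1, 13 to 36 for Dagla, 10 to 15 for Daglb, 10 to 28 for Mgll and 9 to 14 for Faah, 35 to 85 with a footprint. Promoter heights then ranged from 1.55 to 1.72 for Cnr1, 3.50 to 4.03 for Dagla, 2.32 to 4.39 for Daglb, 2.64 to 2.79 for Mgll and 2.32 to 2.34 for Faah. Of 101 alternative values 70 stayed and 31 moved. A count stayed if within 1.5 times of the main value, and a height if within the SD of the replicates. A share stayed if inside the 95% exact interval of the main share. Some of the 70 were bound to stay. A height in either replicate alone always lies within the SD of the 2. Neither a single replicate nor a wider window can close a promoter. The heights of Cnr1 and Faah, lost with 50% reciprocal overlap, are not among the 101. Replicate 2 listed fewer peaks, so a site missing there was not detected and is not shown to be closed.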

Other observations

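The first 10 kb of Dagla held a run of 12 peaks in replicate 1, none of which is a promoter. Of these, 8 were lower than 0.55, and 6 of the 8 (75%) had a lowest FDR under 1e-05, against 11.0% of all 52382 peaks of replicate 1 lower than 0.55. The lowest was 0.144 high, and 3.24% of all peaks of replicate 1 were lower. The run and both cut-offs (0.55 and 1e-05) were chosen after the values were seen. Neighbouring peaks of a single locus are not independent of each other. Replicate 2 had shared sites with this run only between 9.2 and 9.5 kb, at heights of 0.387 to 0.775. The Dagla promoter peak of replicate 1 had an FDR of 1.18e-259. Only 50 of 132685 peaks had a lower one, and 6 of the 2979 peaks within 10% of its height had one as low (median 8.34e-32). In replicate 2 its FDR was 6.16e-06, and 2016 of 2023 peaks of like height (99.7%) had one as low (median 5.53e-19). Height and FDR thus ranked this promoter differently in the 2 replicates, and the cause was not tested.

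RefSeq lists 20 starts for the 5 genes, of which 15 had a shared site within 500 bp. The 5 without were 3 of the 9 starts of Cnr1 and 2 of the 3 of Dagla. One of these starts of Dagla lies 1246 bp from the Dagla site at 28.2 kb.

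By height in both replicates (distance in log10 height over 2 samples), the gene most like Cnr1 was Plxnc1 (1.55 and 1.73), that most like Dagla was Lgr4 (4.04 and 3.49) and that most like Daglb was Pknox2 (4.41 and 2.33). Mgll was nearest to Irs1 (2.57 and 2.79) and Faah to Zfp580 (2.36 and 2.35). Between 93 (Mgll) and 461 (Daglb) of 12484 open genes lay within 0.05 of each, so these likenesses are common.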
